A study of Mus musculus with 45 samples.

Results

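Cpt1a, Slc25a20, Acadvl, Acadl, Acadm, Hadha, Etfdh, Pdk4 and Angptl4 are the 9 genes described here, picked by symbol from a table of 24918 gene rows in the colonic epithelium of mice on 3 diets. Each symbol matched 1 row, and all 9 passed the filter on low counts. RNA-seq was performed on 15 male C57BL/6 mice, 5 per diet, that were 6 weeks old when the diets began and carried no genetic change named in the labels. Control mice (LF) ate a diet with 10% fat for 20 weeks, obese mice (HF) a diet with 60% fat for 20 weeks, and formerly obese mice (HFLF) spent 15 weeks on the high-fat diet before 5 weeks on the low-fat diet. The fat of these diets was lard, and the mice were kept free of specific pathogens. The epithelium was released with EDTA from the whole colon, so a level is an average over all epithelial cells along its length, and fewer cells of a type cannot be told apart from less RNA per cell.

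Cells of the colon can burn fatty acids in their mitochondria. A fatty acid is bound to coenzyme A, passed through the mitochondrial membranes on carnitine, and shortened by repeated rounds of beta-oxidation, with electrons handed to the respiratory chain and acetyl-CoA as the product. Acetyl-CoA can be burned further or turned into ketone bodies. Many of these genes are known targets of the nuclear receptors PPARalpha and PPARdelta, which respond to fatty acids. Of the 9 genes, 7 encode parts of the route itself. Pdk4 and Angptl4 are fat-responsive regulators beside it, one of pyruvate use and the other of fat uptake. None of the 9 encodes an enzyme of ketone body synthesis.

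Cpt1a encodes the liver form of carnitine palmitoyltransferase, the rate-limiting step of entry into mitochondria, and spans chr19:3323301-3385733 on the plus strand of mm10. Slc25a20, the carrier that exchanges acylcarnitine for carnitine across the inner membrane, lies at chr9:108662098-108684641 on the plus strand. Acadvl (chr11:70010183-70015428), Acadl (chr1:66830839-66863309) and Acadm (chr3:153922353-153944643), all on the minus strand, encode the dehydrogenases that open each round for very long, long and medium chains. Hadha (chr5:30118304-30154980, minus) encodes the alpha subunit of the trifunctional protein, which carries out the next steps on long chains. Etfdh (chr3:79603788-79628767, minus) encodes the oxidoreductase that passes the electrons on to ubiquinone. Pdk4 (chr6:5483351-5496278, minus) encodes a kinase that switches off pyruvate dehydrogenase, and Angptl4 (chr17:33774900-33781575, minus) a secreted inhibitor of lipoprotein lipase. Exons of Cpt1a overlap Gm36532 and exons of Etfdh overlap Ppid on the opposite strand. The strand mode of the counting is not given in the sources used here, so these 2 genes could share reads with their neighbours.

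The sequences before the starts of 3 members are shown because they hold the half-site to which PPAR and related nuclear receptors bind, AGGTCA on either strand (TGACCT when read on the other), here in capitals. RefSeq promoter windows of GRCm38.p6 reach from 250 bases before a gene's start to 50 after it and were matched for 8 of the 9 genes. The half-site was found in 3 of these 8 windows and in 16.3% of all 32851 windows. The direct repeat of that half-site with any 1 base between its copies (DR1), searched on both strands and overlapping the half-site by definition, was found in 0 of 8 and in 0.0396% of all windows. A match is a description of the letters only. The printed stretches are the 250 bases up to the start, 5′ to 3′ on the strand of the gene, from chr19:3323051-3323300 (plus), chr11:70015429-70015678 (minus) and chr3:153944644-153944893 (minus).
Cpt1a: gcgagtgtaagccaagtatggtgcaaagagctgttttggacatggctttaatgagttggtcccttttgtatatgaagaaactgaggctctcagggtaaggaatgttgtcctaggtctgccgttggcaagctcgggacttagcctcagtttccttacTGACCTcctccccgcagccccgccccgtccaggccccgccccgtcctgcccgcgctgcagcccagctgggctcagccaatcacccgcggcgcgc
Acadvl: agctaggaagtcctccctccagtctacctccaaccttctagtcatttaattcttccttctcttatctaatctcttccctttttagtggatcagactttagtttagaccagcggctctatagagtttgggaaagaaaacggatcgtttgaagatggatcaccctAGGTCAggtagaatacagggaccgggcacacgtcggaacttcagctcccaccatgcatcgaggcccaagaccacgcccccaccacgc
Acadm: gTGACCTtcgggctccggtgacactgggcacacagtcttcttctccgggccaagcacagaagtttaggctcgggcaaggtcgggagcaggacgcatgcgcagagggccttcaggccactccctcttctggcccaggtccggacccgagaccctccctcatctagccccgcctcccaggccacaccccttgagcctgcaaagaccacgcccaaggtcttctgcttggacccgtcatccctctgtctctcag
The next stretch is shown because Hadha and Hadhb, the genes for both subunits of the trifunctional protein, start back to back with 272 bases between their starts. It is the 250 bases before Hadha at chr5:30154981-30155230 on the minus strand, and capitals mark the 228 bases that the promoter window of Hadhb also covers.
Hadha: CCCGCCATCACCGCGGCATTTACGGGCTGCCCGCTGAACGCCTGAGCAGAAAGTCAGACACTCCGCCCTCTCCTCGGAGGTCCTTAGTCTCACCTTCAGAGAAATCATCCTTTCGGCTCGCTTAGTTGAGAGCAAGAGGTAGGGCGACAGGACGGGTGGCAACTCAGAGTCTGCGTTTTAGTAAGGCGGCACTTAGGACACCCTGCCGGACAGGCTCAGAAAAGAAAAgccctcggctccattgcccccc

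The libraries held 15230391 to 22762095 counts, with the highest total in formerly obese mouse 3. Levels are given as counts-per-million (CPM) of the library total after TMM scaling. Epithelial markers (Epcam, Krt8, Krt18, Krt19, Cdh1 and Vil1) summed to 13100 to 15400 CPM in each library, and all 6 had counts in every library. Smooth muscle markers summed to 0.223 to 2.7 CPM, fibroblast markers to 2.34 to 30.7 CPM and endothelial markers to 8.3 to 15.7 CPM. Immune markers summed to 19.8 to 47.4 CPM, with the highest sum in obese mouse 5. Of 6 adipocyte markers, Plin1 and Lep were at 0 counts in all 15 libraries and the sum of 2.88 to 12.1 CPM came almost wholly from Cidec. Epithelial markers thus stood far above those of other tissues, in accord with the label, with some immune RNA in every library. In formerly obese against control mice, 6 of 8 posterior Hox genes were called lower, beside 1.87% of all genes, and 3 of 7 colonocyte markers and 4 of 6 tested small intestine markers higher, beside 1.85%. In obese against control mice 1 of 8 posterior Hox genes (Hoxd12) was called lower, beside 0.864%, and 2 of 6 small intestine markers (Fabp6 and Alpi) higher, beside 0.718%. The summed small intestine markers were 367 to 695 CPM in control, 457 to 695 in obese and 528 to 822 in formerly obese mice. The part of such regional differences in the values of the 9 genes was not tested.

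In every mouse 7 members were abundant and 2 were scarce. To compare genes, CPM were divided by the length of the merged exons in kb. Hadha was highest with 163 ± 10.5 CPM per kb (SD, n = 15) and exceeded the next gene in 15 of 15 libraries. Acadvl (142 ± 7.04), Slc25a20 (137 ± 15), Acadm (122 ± 6), Cpt1a (120 ± 8.24) and Acadl (116 ± 8.65) followed. These neighbours were not separated, since Acadvl exceeded Slc25a20 in 8 of 15 libraries, Slc25a20 exceeded Acadm in 12, Acadm exceeded Cpt1a in 9 and Cpt1a exceeded Acadl in 11. Etfdh, at 72.5 ± 4.75 CPM per kb, lay below Acadl in 15 of 15 libraries. Pdk4 (3.96 ± 1.6) and Angptl4 (1.97 ± 0.636) were far lower, each in 15 of 15 libraries, and their counts per library were 111 to 492 and 37 to 110.

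The genes of fat entry lay at close levels in the 3 diets. Cpt1a measured 644, 619, 537, 608 and 570 CPM in control mice 1 to 5, 598, 590, 563, 638 and 562 in obese mice 1 to 5, and 667, 572, 578, 527 and 634 in formerly obese mice 1 to 5. Its group means were 596 ± 42.2, 590 ± 31 and 595 ± 55.1 CPM (SD, n = 5 each), and the ranges of the groups overlapped throughout. The log2 difference was -0.01 (95% interval -0.15 to 0.12) in obese against control mice, 0.00 (-0.14 to 0.14) in formerly obese against control mice and 0.01 (-0.12 to 0.15) in formerly obese against obese mice. Of the variance of Cpt1a over the 15 libraries, 0.292% lay between diets, against a median of 17.7% over all 12961 genes tested. With 5 mice per diet, part of such a share arises from the spread between mice alone, so it does not measure an effect of diet. The shares of the other members were 2.27% for Slc25a20, 2.44% for Acadl, 2.48% for Angptl4, 9.65% for Hadha, 9.88% for Acadm, 11.5% for Etfdh, 13.4% for Pdk4 and 15.6% for Acadvl, the last larger than that of 45.4% of all genes. Slc25a20 measured 253, 243, 232, 252 and 207 CPM in control mice 1 to 5, 216, 258, 228, 258 and 256 in obese mice 1 to 5, and 303, 220, 201, 238 and 217 in formerly obese mice 1 to 5. Formerly obese mouse 1 was the highest of all, and the other 4 of its group lay at or below 238 CPM. The means of Slc25a20 were 237 ± 19.1, 243 ± 20.1 and 236 ± 39.9 CPM.

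The chain-length dehydrogenases also had close group means. Acadvl measured 306, 320, 285, 340 and 309 CPM in control mice 1 to 5, 318, 320, 314, 320 and 316 in obese mice 1 to 5, and 331, 306, 297, 284 and 300 in formerly obese mice 1 to 5. All 5 obese mice lay between 314 and 320 CPM, inside the range of the control mice. Acadl measured 217, 222, 212, 256 and 208 CPM in control mice 1 to 5, 221, 231, 224, 228 and 232 in obese mice 1 to 5, and 259, 212, 219, 205 and 251 in formerly obese mice 1 to 5. Control mouse 4 and formerly obese mice 1 and 5 stood above the others, while the obese mice again lay close together. Acadm measured 253, 270, 231, 269 and 250 CPM in control mice 1 to 5, 236, 252, 234, 255 and 251 in obese mice 1 to 5, and 268, 247, 243, 242 and 259 in formerly obese mice 1 to 5. The 3 groups overlapped for each of these genes. Their means in control, obese and formerly obese mice were 312 ± 20.2, 318 ± 2.59 and 304 ± 17 CPM for Acadvl. They were 223 ± 19.2, 227 ± 4.54 and 229 ± 24.1 CPM for Acadl and 255 ± 16.1, 246 ± 9.8 and 252 ± 11.1 CPM for Acadm.

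The genes of the later steps had overlapping groups as well. Hadha measured 425, 429, 420, 477 and 403 CPM in control mice 1 to 5, 429, 448, 454, 476 and 445 in obese mice 1 to 5, and 507, 419, 420, 416 and 455 in formerly obese mice 1 to 5. Formerly obese mouse 1, control mouse 4 and obese mouse 4 were the highest of their groups. Etfdh measured 160, 161, 155, 181 and 161 CPM in control mice 1 to 5, 158, 155, 167, 172 and 159 in obese mice 1 to 5, and 180, 157, 172, 154 and 188 in formerly obese mice 1 to 5. Control mouse 4 lay apart from the other 4 control mice, which were between 155 and 161 CPM. The means were 431 ± 27.6, 451 ± 17.1 and 444 ± 39 CPM for Hadha and 164 ± 9.97, 162 ± 7.15 and 171 ± 14.5 CPM for Etfdh.

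The regulators varied more between mice than any gene of the route. Pdk4 measured 10.2, 7.27, 7.75, 15.3 and 14.7 CPM in control mice 1 to 5, 10.8, 11.4, 17.1, 19 and 13.3 in obese mice 1 to 5, and 28.7, 11.4, 16.2, 7.02 and 14.9 in formerly obese mice 1 to 5. The lowest and the highest value of all 15 mice, 7.02 and 28.7 CPM, both came from formerly obese mice. Its means were 11 ± 3.79, 14.3 ± 3.61 and 15.6 ± 8.1 CPM, and the groups overlapped. Angptl4 measured 4.3, 2.42, 2.42, 4 and 4.12 CPM in control mice 1 to 5, 2.77, 3.48, 3.89, 5.05 and 3.12 in obese mice 1 to 5, and 5.24, 4.51, 2.4, 2.14 and 6.22 in formerly obese mice 1 to 5. Its formerly obese mice again held both the lowest and the highest value, 2.14 and 6.22 CPM. The means of Angptl4 were 3.45 ± 0.947, 3.66 ± 0.882 and 4.1 ± 1.78 CPM. The highest formerly obese mouse exceeded the lowest by 4.09 times for Pdk4 and by 2.91 times for Angptl4, against 1.11 to 1.51 times for the other 7 genes.

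**Figure D1:**
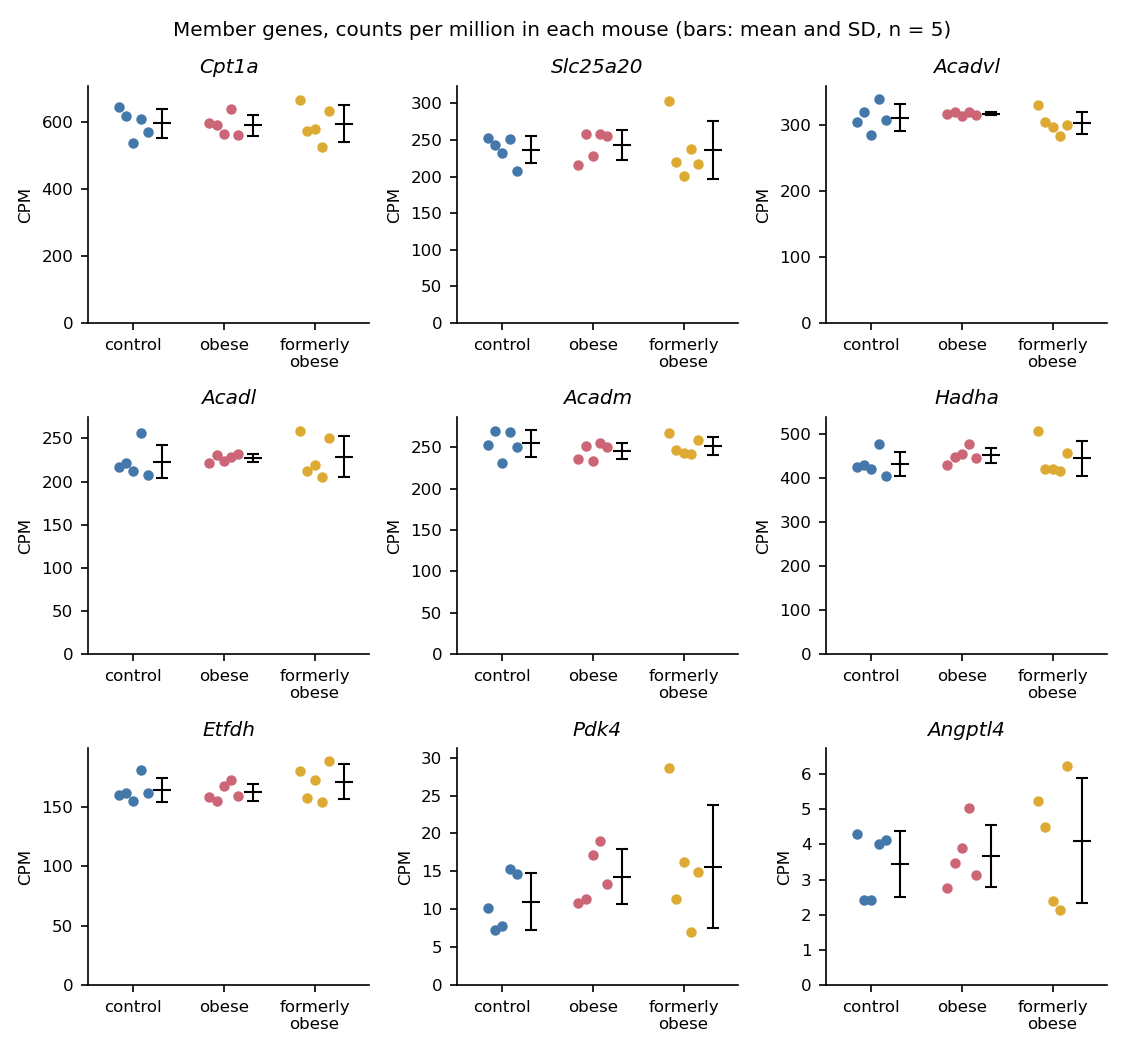
CPM (linear axes from 0) of each of the 9 genes in every mouse, in columns for control, obese and formerly obese mice, with black bars for the mean and SD (n = 5). The columns overlap for every gene, and for Pdk4 formerly obese mouse 1 at 28.7 CPM stands above all others.

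The study compared diets to find which epithelial genes respond to obesity and whether they return after the switch to a low-fat diet. A gene was called, by the cutoffs of the study, when its fold change exceeded 1.2 in either direction with p under 0.01 and a Benjamini-Hochberg adjusted p under 0.25 over all genes tested, here by the quasi-likelihood test of edgeR. In obese against control mice 0 of the 9 genes were called, beside 1.58% of all genes. In formerly obese against control mice 0 of 9 were called, beside 3.72% of all genes. In formerly obese against obese mice 0 of 9 were called, beside 2.65%. When obese mice were set against the mean of both groups then on low-fat food (current feeding), 0 of 9 were called, beside 1.14%. With shares this small in the background, 0 of 9 is near what all genes gave. DESeq2 also called 0 of 9 in each, beside 2.04%, 3.91%, 2.83% and 1.64% of all genes. An unadjusted p under 0.05 was reached by 0 of 9 genes in each comparison with edgeR and with DESeq2, where 10.9%, 16.7%, 13.4% and 10.4% of all genes reached it with edgeR. The comparisons share libraries and are not independent of each other.

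The intervals bound the differences of the 7 abundant genes closely. Their log2 differences were between -0.05 and 0.06 in obese against control mice, between -0.04 and 0.06 in formerly obese against control mice, between -0.07 and 0.07 in formerly obese against obese mice and between -0.04 and 0.05 for current feeding. For all 7, in all 4 comparisons, the 95% interval stayed within 1.2-fold in either direction, and the widest fold that any of these intervals allowed was 1.18, for Slc25a20 in formerly obese against obese mice. A difference of the size that counts as a call was therefore outside the interval of each of these 7 genes.

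Pdk4 and Angptl4 were bounded far less. The log2 difference of Pdk4 was 0.38 ± 0.30 (SE, interval -0.26 to 1.01) in obese against control mice and 0.50 ± 0.30 (-0.13 to 1.13) in formerly obese against control mice, with adjusted p = 0.698 and 0.42 by edgeR. The latter value was 0.17 without formerly obese mouse 1 and 0.69 without formerly obese mouse 4, so it depended on single mice. For Angptl4 the log2 differences were 0.09 ± 0.28 (-0.51 to 0.68) and 0.24 ± 0.28 (-0.35 to 0.82), and the latter was 0.03 without formerly obese mouse 5. The differences in formerly obese against obese mice were 0.13 for Pdk4 and 0.15 for Angptl4, and these turned to -0.20 without formerly obese mouse 1 and to -0.05 without formerly obese mouse 5. For current feeding they were 0.12 and -0.03. An increase of 1.2-fold lay inside the intervals of both genes in every comparison, so neither such an increase nor its absence was shown. The upper limits of these intervals were between 1.39-fold (Angptl4, current feeding) and 2.19-fold (Pdk4, formerly obese against control mice).

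**Figure D2:**
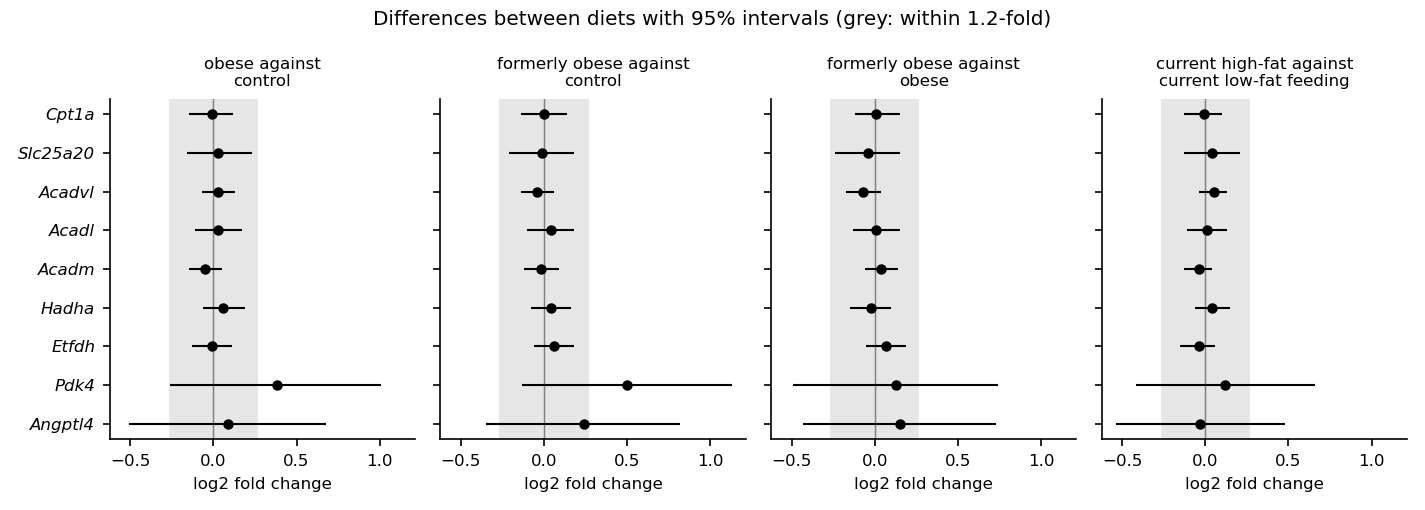
Log2 fold change (points) with its 95% interval (lines) for each of the 9 genes in the 4 comparisons, from the edgeR fit of all 15 libraries, with a grey band for differences within 1.2-fold. The intervals of 7 genes lie inside the band in every panel, and those of Pdk4 and Angptl4 reach beyond it.

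The spread between mice of 1 diet was itself gene-specific. Within groups the SD of log2 CPM was 0.552 for Pdk4, larger than that of 96.5% of all genes tested and of 99.6% of the 500 genes closest to it in level. It was 0.489 for Angptl4, larger than that of 94.7% of all genes. The other 7 lay between 0.0713 (Acadvl) and 0.164 (Slc25a20), against a median of 0.129 over all genes. Among the 500 genes closest in level, however, Slc25a20 exceeded 91.8%, Acadl 77.2%, Cpt1a 67.4%, Etfdh 62.8% and Hadha 60%, and Acadm and Acadvl exceeded 33.4% and 30%.

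The mice that were high for 1 member tended to be high for the rest. Formerly obese mouse 1 was the highest of its group for 7 of 9 genes and lay above its group mean for all 9, by 0.30 on the log2 scale on average. Formerly obese mouse 4 was the lowest of its group for 8 of 9 genes, at a mean of -0.27. Control mouse 4 and obese mouse 4 each lay above the mean of their group for all 9 genes, at 0.18 and 0.15, and control mouse 3 lay below it for all 9, at -0.17. These mice came from all 3 diets. Their libraries held 15841368 to 18282160 counts. The largest of these totals, in formerly obese mouse 4, was exceeded only by that of formerly obese mouse 3. The part of diet or depth in these deviations was not tested.

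**Figure D3:**
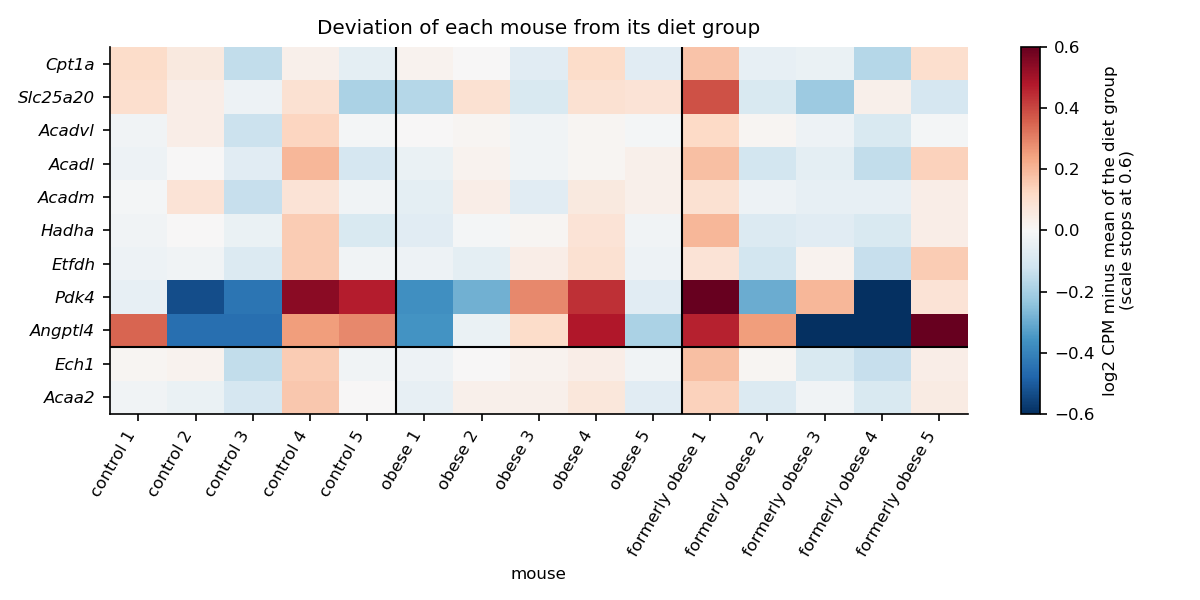
Log2 CPM of each of the 9 genes, and of Ech1 and Acaa2 below the line, in each mouse minus the mean of its diet group, as colour (red above, blue below, scale stopping at 0.6). Formerly obese mouse 1 and control mouse 4 are reddish in nearly every line and formerly obese mouse 4 and control mouse 3 bluish.

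As a description over the 15 libraries, the log2 CPM of the 36 pairs of members had Pearson r from 0.13 (Slc25a20 with Etfdh) to 0.88 (Acadl with Hadha, Spearman rho 0.94), with a median of 0.615. An r over 0.5 was seen in 28 of 36 pairs (77.8%), against 6.42% of all pairs of the 11036 genes with at least 50 counts on average, whose median r was 0.00. With the group means removed the median over the member pairs was 0.645. The pattern leaned on 2 mice. Without formerly obese mouse 1 and control mouse 4, those farthest from the median of the members' mean level, the median was 0.44, the range -0.31 to 0.77, and 12 of 36 pairs exceeded 0.5, while Acadl and Hadha kept r = 0.77. The values of all gene pairs given above are from all 15 libraries and were not computed without these 2 mice. The libraries share their scaling and each carries the cell mixture of its mouse. Cidec stood alone for the adipocyte list, whose other genes did not pass the filter on low counts, so its r does not measure adipocytes. The mean level of the 9 genes had r = 0.60 with that of the epithelial markers, -0.50 with stem cell markers, -0.52 with immune markers, 0.45 with small intestine markers, 0.44 with Cidec, -0.39 with fibroblast markers and 0.36 with colonocyte markers. The Spearman rho of these were 0.55, -0.55, -0.36, 0.37, 0.23, -0.42 and 0.17, the other tested lists lay between r = -0.30 and 0.23, and the part of the cell mixture in the shared pattern was not tested.

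Outside the 9 genes, Ech1, an enzyme that prepares unsaturated fatty acids for beta-oxidation in mitochondria and peroxisomes, was the most like in pattern of 11027 genes ranked, with r = 0.93 and rho = 0.93 to the members' mean level and r = 0.87 without those 2 mice. Acaa2, the mitochondrial thiolase that closes each round, came second with r = 0.86 and rho = 0.84, and r = 0.77 without the 2 mice. Epcam (r = 0.82), an adhesion protein of epithelial cells, Vps25 (r = 0.81), of the sorting machinery of endosomes, and Pxmp4 (r = 0.81), a peroxisomal membrane protein, completed the 5 closest. Cpt2, the inner-membrane partner of Cpt1a, ranked 9 with r = 0.79, Hadh ranked 10 with r = 0.79 and Acot2, a mitochondrial thioesterase, ranked 11 with r = 0.78. The 10 regulators lay between r = -0.38 (Nr4a1) and 0.40 (Rxra), with -0.09 for Ppara and 0.09 for Ppard. Not all of the route ran along, since Acsl1, an acyl-CoA synthetase, had r = -0.59 and ranked 10854. Hadha and Hadhb, with the facing starts shown above, had r = 0.65 and rho = 0.54, and r = 0.56 without the 2 mice.

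The rest of the pathway was followed through 11 lists of 74 genes, of which 63 passed the filter on low counts. In obese against control mice 1 of 63 was called higher, beside 0.718% of all genes, and 2 lower, beside 0.864%. In formerly obese against control mice 0 were called higher and 2 lower, beside 1.85% and 1.87%. In formerly obese against obese mice 0 of 63 were called higher, beside 1.23%, or lower, beside 1.42%, by edgeR, and 0 by DESeq2. For current feeding 1 was called higher, beside 0.687%, and 0 lower, beside 0.455%. An unadjusted p under 0.05 by edgeR was reached by 11, 6, 10 and 12 of 63 in the 4 comparisons in this order, beside 10.9%, 16.7%, 13.4% and 10.4% of all genes. The share of the lists was below that of all genes in formerly obese against control mice and above it in the others. These differences were not tested. No call fell among the listed acyl-CoA synthetases (4 tested), the other carnitine genes (3), the malonyl-CoA genes (3), the later steps of beta-oxidation (7), the electron transfer flavoprotein (2) or lipoprotein lipase control (4).

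Creb3l3, a liver and gut transcription factor of lipid metabolism and itself a PPARalpha target, rose in obese mice. It measured 4.8, 3.41, 3.29, 4.56 and 4.05 CPM in control mice 1 to 5, 11.7, 9.17, 13.6, 12.3 and 14.8 in obese mice 1 to 5, and 15.3, 3.45, 7.25, 5.32 and 2.71 in formerly obese mice 1 to 5. All 5 obese mice lay above all 5 control mice, though how many of all genes parted in this way was not counted. Formerly obese mouse 1, at 15.3 CPM, lay above every obese mouse while the other 4 of its group lay at or below 7.25. The log2 change was 1.61 ± 0.34 (SE) in obese against control mice (edgeR adjusted p = 0.0723) and 1.23 ± 0.27 for current feeding (adjusted p = 0.13). The latter call was lost without obese mouse 1, 3 or 5 (log2 1.16 to 1.25). In formerly obese against obese mice the log2 difference was -0.85 ± 0.32 (edgeR adjusted p = 0.238). It met the cutoffs on fold and adjusted p but not that on the unadjusted p, and was not called. Without formerly obese mouse 1, singled out here after its value was seen, it was -1.37 (edgeR adjusted p = 0.0128). Creb3l3 was not called in formerly obese against control mice either, and without that mouse its log2 difference there was 0.24. In the same comparison of obese with control mice the small intestine markers Fabp6 (log2 1.36, edgeR adjusted p = 0.0678) and Alpi (log2 0.65, adjusted p = 0.238) were called higher, with a median log2 difference of 0.36 over the 6 tested markers against 0 over all genes, and Fabp6 was also called for current feeding (log2 1.04). The part of such cells or regions in the change of Creb3l3 was not tested. In the list of other PPAR targets, which leaves out the 9 members, 6 of 12 genes passed the filter on low counts. Creb3l3 was the single one of these called, beside 0.718% of all genes called higher in obese against control mice. Plin2, which coats lipid droplets, stood at 163 ± 18.7, 165 ± 11.6 and 168 ± 18.1 CPM in control, obese and formerly obese mice, and Ucp2, the most abundant of that list, at 726 ± 43, 724 ± 9.93 and 722 ± 15.3 CPM.

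Acadsb, a dehydrogenase for short branched chains that arise mainly from isoleucine, fell in obese mice. It measured 36.8, 41.3, 35.2, 39 and 36.7 CPM in control mice 1 to 5, 29.6, 32.9, 29.7, 31.2 and 29.5 in obese mice 1 to 5, and 33.8, 34.6, 34.6, 32.2 and 40.7 in formerly obese mice 1 to 5. Every obese mouse lay below every control mouse. The log2 change was -0.30 ± 0.06 (edgeR adjusted p = 0.0723). Ivd, which acts on the leucine branch, had -0.19 and was not called (edgeR adjusted p = 0.177). Its obese mice (68.4 to 77.1 CPM) also lay below all control mice (78.8 to 89.8 CPM). The same held for Acsl4, which was not called in that fit either. Pparg, Esrra and Acad8, which were not called, had no overlap between obese and formerly obese mice. Groups without overlap were thus not particular to the called genes. Their share over all genes was not counted, so they add no support to the tests. Acads, for short straight chains and the most abundant of the other dehydrogenases at 212 CPM per kb, had 0.00 (interval -0.16 to 0.16).

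Pdp1, a phosphatase that switches pyruvate dehydrogenase back on and so acts against Pdk4, was called lower in both obese and formerly obese mice. It measured 17.8, 17.4, 16.6, 15.1 and 15.2 CPM in control mice 1 to 5, 12.8, 15.5, 12.2, 13.3 and 13.2 in obese mice 1 to 5, and 12.3, 13, 11.4, 14.8 and 15.3 in formerly obese mice 1 to 5. Apart from obese mouse 2 and formerly obese mouse 5, which overlapped the lower control mice, values of both groups lay below those of all control mice. The log2 changes were -0.29 ± 0.09 (edgeR adjusted p = 0.232) and -0.30 ± 0.09 (adjusted p = 0.104) against control mice. The obese call was lost in 8 of the fits that left out 1 mouse, and the other one without control mouse 1 or 2 or formerly obese mouse 1 or 3 (log2 -0.24 to -0.27). The other kinases, Pdk1, Pdk2 and Pdk3, were not called in any comparison, and Pdha1, the most abundant gene of that list, stood at 161 CPM per kb.

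Nr4a1, an immediate early orphan nuclear receptor, fell in formerly obese mice. It measured 29, 17.3, 19.3, 14.8 and 21.2 CPM in control mice 1 to 5, 11.6, 14.1, 12.6, 14.3 and 17.2 in obese mice 1 to 5, and 5.36, 12.7, 10.8, 9.98 and 11.4 in formerly obese mice 1 to 5. All 5 formerly obese mice lay below all 5 control mice, which again was not counted over all genes. The log2 change was -1.01 ± 0.19 (edgeR adjusted p = 0.0233), and in obese against control mice it was -0.54 ± 0.19 (adjusted p = 0.317), called by DESeq2 but not by edgeR. The receptors that respond to fatty acids were not called. Ppara had log2 differences of 0.06 and 0.10 against control mice, and Ppard, the most abundant regulator at 94.2 CPM per kb, had 0.06 and -0.08. Pparg and Esrra were closest to a call in formerly obese against obese mice, at 0.20 (adjusted p = 0.0812) and -0.20 (adjusted p = 0.117), and both stayed under the fold cutoff of 1.2.

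**Figure D4:**
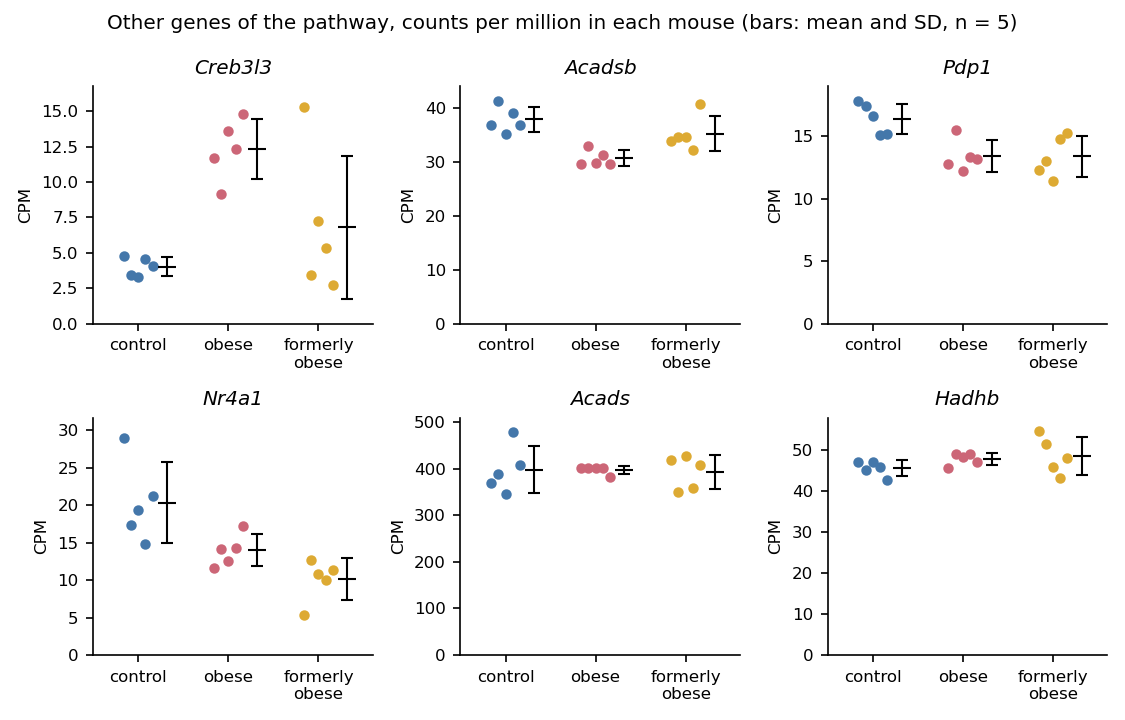
CPM (linear axes from 0) in every mouse for the 4 other pathway genes that were called (Creb3l3, Acadsb, Pdp1, Nr4a1) and for Acads and Hadhb, which were not, with black bars for mean and SD (n = 5). For Creb3l3 the obese mice stand clear of the control mice and formerly obese mouse 1 lies above every obese mouse at 15.3 CPM.

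The genes of ketone use and transport and of acetoacetyl-CoA handling, Oxct1, Slc16a1, Bdh1 and Acat1, were not called in any comparison. Acat1, a mitochondrial thiolase, stood at 266 ± 13.8, 262 ± 15 and 251 ± 9.48 CPM in control, obese and formerly obese mice, and Slc16a1, a carrier of lactate, short-chain acids and ketone bodies, at 605 ± 94.6, 538 ± 21 and 642 ± 80.4 CPM.

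Other enzymes of the route were not called in any comparison either. Cpt2 had log2 differences of 0.08 and 0.08 against control mice in obese and formerly obese mice, Acaa2 had -0.02 and -0.04, and Hadh, at 311 CPM per kb the most abundant of the later steps, stood at 566 ± 48.4, 559 ± 24.4 and 544 ± 30.9 CPM in the 3 groups. Hadhb had 0.07 (interval -0.05 to 0.19) and 0.09 (-0.03 to 0.22). Its level of 8.99 CPM per kb was far below the 163 of its partner Hadha. The annotation holds a copy of this gene, Hadhb-ps, with which it may share reads, so its level is uncertain. Etfb, at 186 CPM per kb, was the most abundant of its list, as were Acsl3 (69.7) among acyl-CoA synthetases, Cpt2 (58) among the other carnitine genes, Mlycd (12.1) among malonyl-CoA genes and Lmf1 (15.5) in lipoprotein lipase control.

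DNA methylation near these genes was read from the list of differentially methylated regions (DMRs) between obese and control mice, 4123 with higher (hyper) and 4076 with lower (hypo) methylation in obese mice. The list holds positions and directions and no value per mouse, so no error can be set on it. Of the 9 genes, 1 (11.1%) held a DMR inside, against 12.3% of 12957 tested gene symbols. Within 10 kb there were 3 of 9 (33.3%, against 20.6%) and within 100 kb 4 of 9 (44.4%, against 62.4%), so the members were close to the background. In all, 10 DMRs lay within 100 kb, 4 hyper and 6 hypo, near Cpt1a, Acadm, Acadvl and Hadha.

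The DMRs closest to the genes are shown with their CpGs in capitals, since these are the bases whose methylation was compared. The DMR of Cpt1a lies in an intron at chr19:3376063-3376094, 52.8 kb from the start, and is hyper. That of Acadm lies 9.7 kb upstream at chr3:153954322-153954359 and is hypo. A hypo DMR inside an intron of Hadhb at chr5:30180025-30180047 lies 25.1 kb upstream of Hadha. All are given on the plus strand of mm10.
Cpt1a intron: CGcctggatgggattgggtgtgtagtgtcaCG
Acadm upstream: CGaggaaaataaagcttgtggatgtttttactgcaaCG
Hadhb intron: CGttaagaagtgttaaattgcCG
Each printed DMR holds 2 CpGs, at its ends. A longer hypo DMR of 469 bases with 2 CpGs lies 3.5 kb upstream of Acadvl at chr11:70018969-70019437. None of the 3 genes whose DMRs are printed was called in obese against control mice, where their log2 differences were -0.01 for Cpt1a, -0.05 for Acadm and 0.07 for Hadhb. No CpG of the bisulfite amplicons lay within 100 kb of any of the 9 genes, so methylation of single mice was not analysed here.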

How the data were processed

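RNA was sequenced from stranded mRNA libraries of 15 mice. The authors mapped reads to mm10 with TopHat2 2.0.4 and deposited raw counts per gene from HTSeq-count. The annotation release is not given in the sources used here. The deposited fraction of methylated reads per CpG of the bisulfite amplicons was used for CpG positions only. WGBS DMRs, from Bismark and a Rao-Scott likelihood ratio test of obese against control mice, were used as deposited. Deposited DESeq2 tables of fold changes and p-values were not used.

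Counts were fitted in R 4.3.3 with edgeR 4.0.16 (filterByExpr, TMM, quasi-likelihood test), with all 15 libraries in 1 fit and the diet as the only term. Of 24918 rows 12961 were tested. Log2 CPM used a prior count of 2. DESeq2 1.42.0 was an alternative. Labels give each sample its group, and p-values set the difference between groups against the spread between these mice. No 2 libraries of a group were copies. Named genes were the 9 members, listed pathway genes that were called, the 2 with the smallest p per comparison, Ppara, Ppard, Hadhb, Acaa2, Acads and Cpt2, the most abundant gene of each list, and the 5 genes closest in pattern. Ivd, Plin2, Hadh, Acot2, Acsl1 and other genes were added after their values were seen. The members and lists were chosen with earlier results of these data known. Results of some genes are not reported here.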

Additional observations from a re-analysis of the deposited data

Results flagged for a closer look

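Etfdh in control mouse 4, at 181 CPM, lay apart from the other 4 control mice, by the gap test of Dixon at its 95% critical value of 0.71 for 5 values. It was the only flag among 27 tests of the 9 genes in 3 groups, and chance flags about 1 in 20 groups. The same mouse lay above its group mean for all 9 genes. Exons of Etfdh overlap Ppid on the opposite strand, and the part of Ppid reads in this value was not tested.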

How the results depend on the processing

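The count of called members was 0 of 9 in every comparison under each alternative run, which were 15 fits without 1 library each, 2 other scalings, 2 other filters on low counts, DESeq2, the compared groups only, a GC correction, an adjusted p under 0.05 without a fold cutoff, and the replicate block. Of 819 member values under alternatives, 0 were called and 34 changed sign, with sizes within the spread between replicates. The lowest unadjusted p of any was 0.0198 for Pdk4 in formerly obese against control mice and 0.0467 for Slc25a20 in formerly obese against obese mice. An adjusted p under 0.05 without a fold cutoff gave 16, 282, 25 and 10 genes of all tested in obese against control, formerly obese against control, formerly obese against obese mice and current feeding, against 205, 482, 343 and 148, and it gave 0, 1, 0 and 0 pathway genes. Among the pathway calls only that of Nr4a1 passed it. Fitting the compared groups only gave 5 pathway genes in obese against control mice, with Nr4a1 and Acsl4 added. Leaving out 1 library gave 2 to 4, 1 to 4, 0 to 3 and 0 to 3 pathway genes and 40 to 331, 362 to 660, 167 to 400 and 17 to 233 of all genes. Pdp1 in obese mice also failed without the count filter (log2 -0.30, edgeR adjusted p = 0.266).

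The replicate numbers were not used to pair the mice in the main fit. The deviations of libraries with the same number had correlations from -0.23 to 0.33. For number 2 they were 0.2 (control with obese), 0.22 (control with formerly obese) and 0.16 (obese with formerly obese), each the best match in the other group. Number 3 was also the best match for control with obese (0.15) and obese with formerly obese mice (0.33). Numbers 1, 4 and 5 were never the best match. What libraries of the same number share was not tested. With the replicate block, 252, 537, 346 and 153 of all genes were called, and 1 pathway gene, Creb3l3, was called in formerly obese against obese mice, where 0 were called without the block. Depth limits Angptl4, with 37 to 110 counts per library, more than the other 8 genes.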
